A study of Mus musculus with 12 samples.

Results

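The malate-aspartate shuttle genes were followed in the triceps brachii muscle of 12 mice. The genes considered were Mdh1, Got1, Got2, Slc25a11, Slc25a12 and Slc25a13, and they were chosen by gene symbol with earlier results on these mice known, in which Mdh1 and Got1 stood out by their higher level in active mice. The difference between active and inactive mice was therefore used in the choice, and for these genes it is given as a description without a test. Of the 6 genes, 5 had a row among the 10187 genes of the table, and all 5 were among the 7247 genes tested. Slc25a13 was not analysed here.

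The shuttle carries the reducing equivalents of cytosolic NADH into the mitochondrion, because the inner membrane does not let NADH itself pass. Mdh1, the cytosolic malate dehydrogenase, uses NADH to make malate, and the oxoglutarate/malate carrier Slc25a11 takes the malate into the matrix, where the mitochondrial malate dehydrogenase Mdh2 regenerates NADH. The aspartate aminotransferases Got2 in the matrix and Got1 in the cytosol return the carbon as aspartate, which leaves the matrix through the calcium-responsive aspartate/glutamate carriers Slc25a12 (aralar) and Slc25a13 (citrin). In muscle the shuttle works beside the glycerol phosphate shuttle, the other main route for cytosolic NADH.

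The mice were male C57/BL6 animals in 4 groups of 3, each replicate being a different mouse. Inactive wild-type (IW) and inactive myostatin-reduced (IM) mice had no running wheel, whereas the active groups (AW for wild-type, AM for myostatin-reduced) ran freely on one for 12 weeks from the age of 6 months. Tamoxifen (0.025% of the feed, 6 weeks) was given to every group, wild-type included. Mice with a floxed Mstn thereby lost exon 3 of that gene through Cre recombinase, and the others did not. The promoter driving Cre was not given in the sources used here. Wheel mice were caged singly and were matched across genotypes for how much they ran, so that housing and wheel access cannot be told apart.

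The values are normalized read counts per gene, scaled by the authors and not divided by gene length. Estimated depth was 9023561 to 12184086 reads per mouse, and the 5 shuttle genes were covered by 2065 to 12724 estimated reads each, so that counting error at the lowest coverage was 1.39% to 2.2% of the value. Mstn, the targeted gene, lay between 79.7 and 138 in wild-type mice and between 8.7 and 21.6 in myostatin-reduced mice (log2 change −2.66, SE 0.158, FDR-adjusted P-value 1.29e-06 in limma), counted over the whole gene and not over the deleted exon alone. All 5 skeletal muscle markers were present, and their summed level was 80397 to 89240.3 in IW, 74669.7 to 80302 in AW, 96366 to 99241 in IM and 77918 to 88293 in AM mice, so that the IM mice lay above all others. Markers of adipocytes, Schwann cells and blood were low, with sums of 15.5 to 68.4 for 3 of 4 adipocyte genes, 16.8 to 59.1 for 3 Schwann cell genes and 2.0 to 3.79 for Ptprc, the 1 of 4 blood genes analysed. The 4 endothelial markers summed to more, at 180 to 390.1. Slow-fibre genes varied widely between mice of the same group, and their values stand beside the results that they touch. In whole muscle, fewer cells of a type and less RNA per cell cannot be told apart.

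In the mouse genome (build NCBIM37, mm9) all 5 genes lay on the minus strand. Mdh1 is at chr11:21456790-21472370 with 9 exons and Slc25a11 at chr11:70457698-70460981 with 8 exons. Got1 is at chr19:43574242-43599095 with 9 exons, Got2 at chr8:98388034-98412447 with 10 exons, and Slc25a12 at chr2:71109120-71205806 with 18 exons. Reads were counted over exons. Got2 has an annotated pseudogene, Got2-ps1, and reads that both could take up make the Got2 level uncertain.

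Because Mdh1 and Got1 had the most similar profiles of the 5 genes over the 12 mice, the 250 bases upstream of their starts are shown, with those of Slc25a11, whose active and inactive mice also separated. Activity was used in the choice of the genes, so nothing is read from this likeness. The sequences come from RefSeq (GRCm38.p6) and are written 5′ to 3′ on the strand of the gene. Capitals mark CCAAT on either strand (ATTGG when it lies on the other strand) and, in Got1, AAGGTCA.
Mdh1 (chr11:21571935-21572184, minus strand): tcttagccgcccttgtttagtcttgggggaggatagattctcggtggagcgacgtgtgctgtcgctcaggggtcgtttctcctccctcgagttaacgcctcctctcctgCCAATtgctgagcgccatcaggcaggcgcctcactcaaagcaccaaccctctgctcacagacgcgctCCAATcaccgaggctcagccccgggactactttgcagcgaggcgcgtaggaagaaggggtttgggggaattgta
Got1 (chr19:43524606-43524855, minus strand): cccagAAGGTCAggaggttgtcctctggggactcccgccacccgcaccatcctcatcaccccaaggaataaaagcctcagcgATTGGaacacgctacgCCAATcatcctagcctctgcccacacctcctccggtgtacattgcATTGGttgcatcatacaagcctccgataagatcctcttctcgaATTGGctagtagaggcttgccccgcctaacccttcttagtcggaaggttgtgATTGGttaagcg
Slc25a11 (chr11:70647040-70647289, minus strand): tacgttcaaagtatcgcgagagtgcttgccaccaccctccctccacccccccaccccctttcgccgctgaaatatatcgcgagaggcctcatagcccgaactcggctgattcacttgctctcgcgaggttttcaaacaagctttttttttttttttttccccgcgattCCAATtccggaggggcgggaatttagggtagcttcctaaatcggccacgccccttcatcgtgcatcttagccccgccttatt

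Both strands of the upstream windows were searched for AAGGTCA (the core bound by estrogen-related receptors), TGACGTCA (the cyclic AMP response element), GCGCATGC (the NRF-1 core), CCGGAAG (the GABP core) and TATAAA, and CCAAT was added after the sequences had been seen. Among 32851 windows of this length, 4.08% held AAGGTCA, 1.55% TGACGTCA, 2.26% GCGCATGC, 6.91% CCGGAAG, 12.4% TATAAA and 33.8% CCAAT. The Got1 window held AAGGTCA, its first base 245 bases upstream of the start, at position -245. It also held CCAAT 5 times, at positions -168, -152, -107, -64 and -12, and 70 of all windows (0.213%) held it at least as often. The Mdh1 window held CCAAT 2 times, at -141 and -74, and 10.1% of windows held it at least as often. Slc25a11 had 1 CCAAT at -82, Got2 had TATAAA on the other strand at -142, and the Slc25a12 window held none of these letters. None of the 5 windows held TGACGTCA, GCGCATGC or CCGGAAG. A match of this kind describes the letters only and is no evidence of a bound site.

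Mdh1 and Got1, the cytosolic enzymes, were about 1.55 to 2.0 times higher in active than in inactive mice of the same genotype. Slc25a11 and Got2 were 1.29 to 1.52 times higher, and Slc25a12 differed by 1.03 to 1.08 times. Mdh1 was 673, 480.1 and 523 in the IW mice and 716, 1039.7 and 1009.8 in the AW mice. In the myostatin-reduced mice it was 468, 439 and 400.4 without a wheel and 861, 969 and 759.9 with one. All 6 active mice therefore lay above all 6 inactive mice, although the lowest AW mouse (716) was close to the highest IW mouse (673).

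Got1 had the values 514, 360.4 and 410.1 in IW mice and 553, 701 and 741 in AW mice. The myostatin-reduced mice had 345, 323 and 288 (IM) and 626, 727 and 556 (AM). The 6 active mice again lay above the 6 inactive mice, the mouse with the lowest active value was the same AW mouse, and the gap to the highest IW mouse was again small.

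The mitochondrial aminotransferase Got2 was 281, 208 and 247 in IW mice, 261, 354 and 332 in AW mice, and 321, 370 and 305 in AM mice. Its IM mice were alike at 218 ± 0.14 (SD, n = 3), a spread below the counting error. AM and IM mice were apart, but an AW mouse at 261 lay below an IW mouse at 281, so activity levels overlapped in wild-type mice. Slc25a11 was 287, 230.4 and 258 in IW mice and 295, 364 and 366 in AW mice. The IM mice had 220.3, 223 and 209, and the AM mice 329, 340.5 and 295. The active and inactive mice did not overlap for this carrier, by the narrow margin of 287 against 295.

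Slc25a12, which exports aspartate from the matrix, varied little. Wild-type mice had 641, 588 and 559 without a wheel (IW) and 601, 609 and 627 with one (AW). Myostatin-reduced mice had 543, 528 and 523 (IM) and 573, 588 and 558 (AM). The highest of all 12 values belonged to an inactive wild-type mouse, and activity levels overlapped in wild-type mice but not in myostatin-reduced mice. Mdh1, Got1 and Slc25a11 had active mice above inactive mice without overlap within both genotypes, as had 4.84% of all genes tested; nothing is read from this, since activity was used in the choice.

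**Figure D1:**
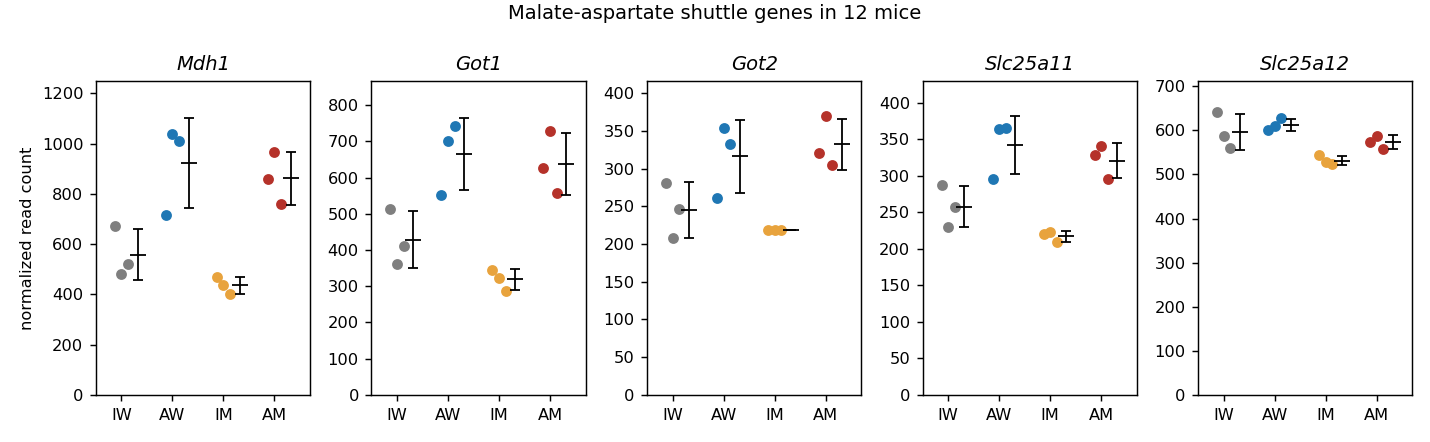
Normalized read count (vertical axis, from 0, with its own scale for each gene) of the 5 shuttle genes in each mouse (points) of the inactive wild-type (IW), active wild-type (AW), inactive myostatin-reduced (IM) and active myostatin-reduced (AM) groups, with the group mean and SD (bars, n = 3). Mdh1 is between 400.4 and 673 in the inactive mice and between 716 and 1039.7 in the active mice, whereas Slc25a12 is between 523 and 641 in all mice.

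On the log2(value + 1) scale the active minus inactive difference, averaged over genotypes, was 0.85 for Mdh1 (SE 0.109), 0.82 for Got1 (SE 0.102), 0.48 for Got2 (SE 0.0873), 0.48 for Slc25a11 (SE 0.0701) and 0.08 for Slc25a12 (SE 0.0447). Ranked from the highest of the 7247 differences, Mdh1 was at place 43, Got1 at 47, Got2 at 164, Slc25a11 at 166 and Slc25a12 at 1950. In the fit over all genes 7.99% were called higher and 6.51% lower in active mice. The differences were larger within myostatin-reduced mice (0.98 for Mdh1, 0.99 for Got1, 0.60 for Got2, 0.56 for Slc25a11 and 0.11 for Slc25a12) than within wild-type mice (0.72, 0.64, 0.36, 0.40 and 0.04 in the same order). Whether they differed between genotypes is the interaction, which has its own test.

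Slow-fibre genes differed widely between mice. The slow-fibre score, the mean over 11 genes of slow muscle fibres of the log2 deviation from each gene's own mean, was 1.96, −1.96 and 0.09 in the IW mice and −1.02, 2.33 and 2.49 in the AW mice. It was −2.23, −1.39 and −1.79 in the IM mice and 1.09, 2.06 and −1.63 in the AM mice. The summed reads of the list ran from 94.3 to 1369.7 in IW, 151 to 1831 in AW, 78.3 to 112 in IM and 117 to 1343 in AM mice, and no group other than IM was uniform. Of the 11 genes, 1 was called higher in active mice, a share near the 7.99% of all genes (Casq2, the calcium-binding calsequestrin of slow and cardiac muscle, log2 change 1.34, SE 0.226, FDR-adjusted P-value 0.00306 in limma), and the median change of the 11 genes was 1.80, with the other 10 not passing the test.

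Within the IW and the AM groups, Mdh1, Got1, Got2 and Slc25a11 put the 3 mice in the same order as the score. In the AW group the mouse with the lowest score (−1.02) had the lowest value of all 5 genes. In the IM group none of the 5 genes followed the order of the score, and the mouse with the lowest score (−2.23) had the highest Mdh1 (468) and Got1 (345) of its group. Across groups, Mdh1 was 716 in the AW mouse at −1.02, 759.9 in the AM mouse at −1.63 and 673 in the IW mouse at 1.96. With the score as a covariate in the fit the active minus inactive difference was 0.64 for Mdh1, 0.62 for Got1, 0.31 for Got2, 0.35 for Slc25a11 and 0.04 for Slc25a12. Within myostatin-reduced mice it was then 0.71, 0.74, 0.38, 0.39 and 0.06 in the same order, and within wild-type mice 0.57, 0.50, 0.25, 0.31 and 0.02.

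Of 8 fast-fibre genes, 2 were called higher and 2 lower in active mice, against 7.99% and 6.51% of all genes, and 4 did not pass the test. The myosin heavy chains Myh1 (type IIx) and Myh2 (type IIa) had log2 changes of 1.51 (SE 0.227, FDR-adjusted P-value 0.0019 in limma) and 2.04 (SE 0.537, adjusted 0.0251). Myh4 (type IIb) and the fast calcium pump Atp2a1 had changes of −0.57 (SE 0.128, adjusted 0.0127) and −0.30 (SE 0.0889, adjusted 0.0384). The calls of Myh1 and Myh4 were kept in all 19 alternatives. That of Myh2 was lost with the slow-fibre covariate (1.09, adjusted 0.132) and without any 1 of IW replicates 2 and 3, AW replicates 2 and 3, IM replicate 3 and AM replicate 2 (1.66 to 1.98, adjusted 0.0527 to 0.0689). That of Atp2a1 was lost without any 1 of these mice, IM replicates 1 and 2 and AM replicate 1 (−0.32 to −0.28, adjusted 0.0597 to 0.102), with the slow-fibre covariate (−0.21, adjusted 0.0754), with the replicate block (−0.30, adjusted 0.0593) and with no filter on low values (−0.30, adjusted 0.0931). The summed reads of the 8 genes ran from 169911 to 192761 in IW, 143225 to 170602 in AW, 203206 to 210417 in IM and 150541 to 186990.4 in AM mice. The part of the fast-fibre genes in the shuttle gene differences was not tested.

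**Figure D2:**
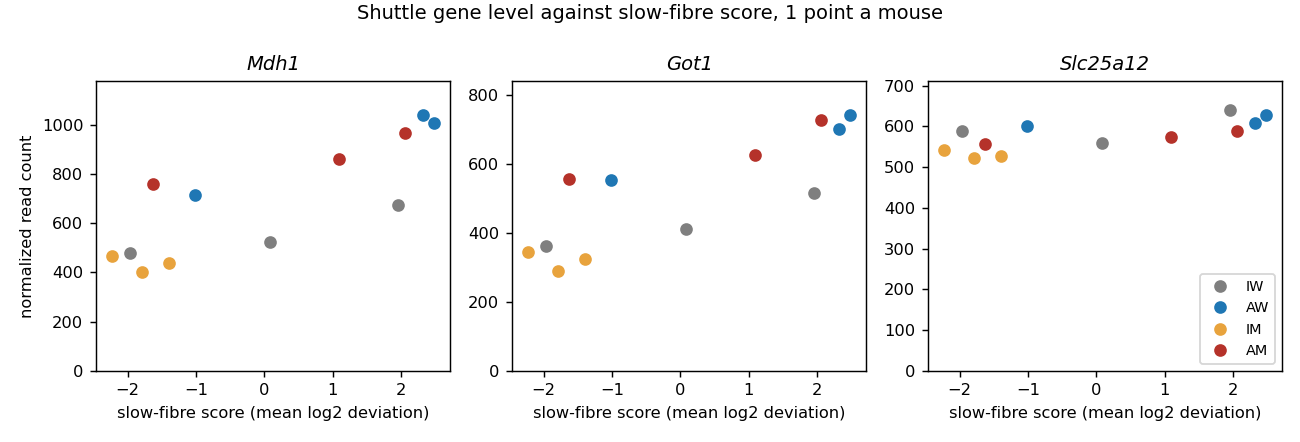
Normalized read count of Mdh1, Got1 and Slc25a12 (vertical axes, from 0) against the slow-fibre score (horizontal axes, mean log2 deviation of 11 slow-fibre genes), with 1 point for each of the 12 mice coloured by group. Mdh1 is between 400.4 and 468 in the 3 IM mice, whose scores are all low, and at 1009.8 and 1039.7 in the 2 AW mice with the highest scores, whereas Slc25a12 is between 523 and 641 in all mice.

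The 4 endothelial markers summed to 209 to 264 in IW, 209 to 359.6 in AW, 180 to 189 in IM and 232 to 390.1 in AM mice. The test in limma called 3 of the 4 higher in active mice, against 7.99% of all genes, with a median log2 change of 0.48. The FDR-adjusted P-values in limma were 0.0122 for Tek, 0.0281 for Kdr and 0.0308 for Pecam1, and Cdh5 did not pass (0.0831). These calls were not followed through the alternatives. The part of the endothelial genes in the shuttle gene differences was not tested.

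Myostatin-reduced mice had lower estimates for all 5 shuttle genes than wild-type mice, but none passed the test. The myostatin-reduced minus wild-type log2 change was −0.21 for Mdh1 (SE 0.109, 95% confidence interval −0.45 to 0.02, FDR-adjusted P-value 0.269 in limma). It was −0.24 for Got1 (SE 0.102, −0.46 to −0.02, adjusted 0.195) and −0.04 for Got2 (SE 0.0873, −0.23 to 0.15, adjusted 0.831). For the carriers it was −0.16 for Slc25a11 (SE 0.0701, −0.32 to −0.01, adjusted 0.194) and −0.13 for Slc25a12 (SE 0.0447, −0.23 to −0.03, adjusted 0.112). Thus 0 of 5 were called, against 5.78% of all genes tested. At an unadjusted P-value under 0.05 there were 3 of 5 (Got1, Slc25a11 and Slc25a12), against 1628 of the 7247 genes. The median change of the 5 genes was −0.16 and that of all genes was 0. With the slow-fibre score as a covariate the estimates were −0.06 for Mdh1, −0.10 for Got1, 0.08 for Got2, −0.07 for Slc25a11 and −0.10 for Slc25a12, and without IW replicate 1, the IW mouse with the highest score, they were −0.14, −0.17, 0.01, −0.12 and −0.10.

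Among inactive mice the genotype difference was larger for each gene than the average over activity levels. The mean Mdh1 level was 559 ± 102 (SD, n = 3) in IW and 436 ± 33.7 (SD, n = 3) in IM mice, 0.779 times as high, and that of Got1 was 428 ± 78.3 and 319 ± 28.7 (SD, n = 3 each), 0.744 times as high. Slc25a11 was at 258 ± 28.3 and 217 ± 7.11, Slc25a12 at 596 ± 41.7 and 531 ± 10.3, and Got2 at 245 ± 36.5 and 218 ± 0.14 (SD, n = 3 each). The 3 IM mice lay below the 3 IW mice for Mdh1, Got1, Slc25a11 and Slc25a12 and not for Got2, an order that 12.7% of all genes shared. In limma the IM minus IW log2 change was −0.35 for Mdh1 (FDR-adjusted P-value 0.265), −0.41 for Got1 (0.153), −0.16 for Got2 (0.547), −0.24 for Slc25a11 (0.232) and −0.16 for Slc25a12 (0.202). None of the 5 was called, against 2.51% of all genes, and 4 had an unadjusted P-value under 0.05, against 1262 of all genes. The paper, with a different test on the reads, lists Got1 as differentially expressed between IW and IM mice. The IM minus IW estimates were −0.13 for Mdh1, −0.21 for Got1, 0.01 for Got2, −0.11 for Slc25a11 and −0.13 for Slc25a12 with the slow-fibre score as a covariate, and −0.20, −0.27, −0.06, −0.16 and −0.11 without IW replicate 1. The IM mice were also the group with low slow-fibre scores in all 3 mice, and their summed skeletal muscle markers (96366 to 99241) were above those of the IW mice (80397 to 89240.3). The part of the skeletal muscle markers in the genotype difference was not tested. Of the 8 fast-fibre genes, 1 was called lower and 0 higher in IM than in IW mice, against 2.51% of all genes called in either direction. Most went the other way, with 6 of the 8 estimates higher in IM mice and a median change of 0.13. The called gene was Myh1 (−1.44, FDR-adjusted P-value 0.0399 in limma), with −1.05 (adjusted 0.142) without IW replicate 1. That call was also lost with the replicate block (−1.44, adjusted 0.057) and without any 1 of IW replicate 3, AW replicates 2 and 3 and the IM replicates (−1.60 to −1.21, adjusted 0.054 to 0.164).

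Among active mice the genotypes were closer. Mdh1 was 922 ± 179 in AW and 863 ± 105 in AM mice, Got1 665 ± 98.7 and 637 ± 86, Got2 316 ± 48.5 and 332 ± 33.9, Slc25a11 342 ± 40.1 and 321 ± 23.9, and Slc25a12 612 ± 13.2 and 573 ± 15.3 (SD, n = 3 each). The first 4 overlapped between genotypes. Slc25a12 was lower in all 3 AM mice than in all 3 AW mice, as were 7.47% of all genes. The AM minus AW log2 change in limma was −0.08 for Mdh1, −0.06 for Got1, 0.08 for Got2, −0.08 for Slc25a11 and −0.10 for Slc25a12, with FDR-adjusted P-values of 0.573 to 0.897. None was called, against 0.207% of all genes, and 0 of 5 had an unadjusted P-value under 0.05, against 894 of all genes. The estimates depended on single mice. Leaving out a mouse gave −0.25 to 0.01 for Mdh1, −0.19 to 0.03 for Got1 and −0.05 to 0.17 for Got2. It gave −0.19 to −0.02 for Slc25a11 and −0.11 to −0.08 for Slc25a12.

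The activity-by-genotype interaction asked whether the genotype change differed between active and inactive mice. Estimates were positive for all 5 genes, at 0.26 for Mdh1 (95% confidence interval −0.21 to 0.74), 0.35 for Got1 (−0.09 to 0.79), 0.24 for Got2 (−0.14 to 0.62), 0.16 for Slc25a11 (−0.15 to 0.46) and 0.07 for Slc25a12 (−0.13 to 0.26) on the log2 scale. FDR-adjusted P-values in limma were 0.89 to 0.917 and no shuttle gene was called, nor was any other gene (0%). At an unadjusted P-value under 0.05 there were 0 of the 5 shuttle genes and 4.1% of all genes. The intervals for Mdh1 and Got1 reached 0.74 and 0.79, so an interaction of up to that size lay within the error of 3 mice in each group. The estimates depended on single mice. When a mouse was left out they ranged from 0.09 to 0.37 for Mdh1, 0.21 to 0.47 for Got1, 0.11 to 0.35 for Got2, 0.06 to 0.24 for Slc25a11 and 0.01 to 0.11 for Slc25a12. The lowest came without IW replicate 1 for Got1 and Slc25a12 and without AW replicate 1 for the others, and the highest without IW replicate 2 or, for Slc25a12, IW replicate 3. With the slow-fibre score as a covariate they were 0.14, 0.24, 0.14, 0.08 and 0.05.

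**Figure D3:**
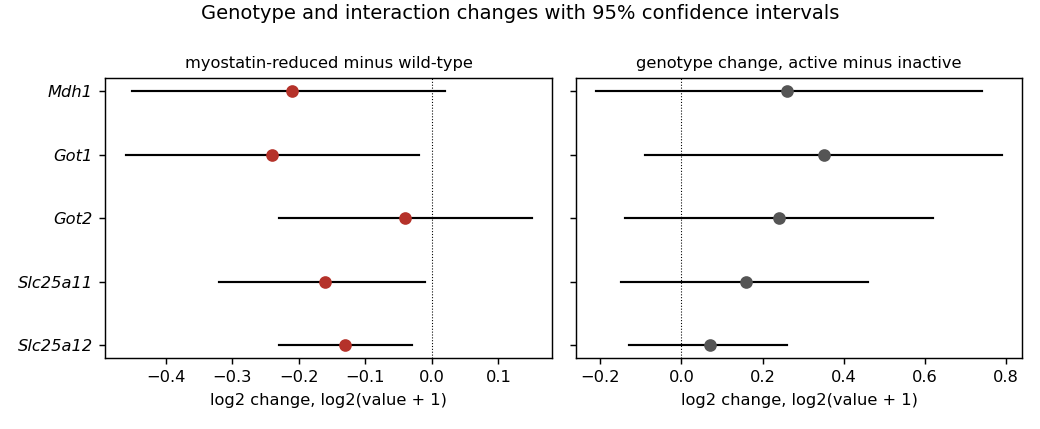
Fitted log2 changes (points) with 95% confidence intervals (lines) of the 5 shuttle genes for genotype (myostatin-reduced minus wild-type) and for the interaction (genotype change in active minus that in inactive mice), on the log2(value + 1) scale with a separate horizontal axis in each panel and a dotted line at 0. The genotype changes run from −0.24 (Got1) to −0.04 (Got2), and every interaction interval includes 0.

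The balance between partner enzymes was compared as a ratio within each mouse, which hardly depends on the scaling of the sample. The Got1 over Got2 ratio was 1.83, 1.73 and 1.66 in IW mice against 1.58, 1.48 and 1.32 in IM mice, and 2.12, 1.98 and 2.23 in AW mice against 1.95, 1.97 and 1.82 in AM mice. Within both activity levels every myostatin-reduced mouse lay below every wild-type mouse, among active mice by the narrow margin of 1.97 against 1.98. How many other pairs of genes separate in this way was not computed. The mean log2 difference was −0.20 (two-sided exact permutation test of genotype within activity level, p = 0.005, the smallest that its 400 arrangements allow, adjusted p = 0.015 over 3 pairs). Without IW replicate 1 the difference was −0.18 with an adjusted p of 0.06 in the exact test, and with the slow-fibre score as a covariate it was −0.17 with an adjusted p of 0.06. The reads that Got2 may share with its pseudogene enter this ratio.

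The Mdh1 over Mdh2 ratio of cytosolic to mitochondrial malate dehydrogenase was 0.577 to 0.81 in inactive mice and 0.828 to 1.1 in active mice. Between genotypes the log2 ratio differed by −0.15 (exact permutation p = 0.1, adjusted p = 0.15). Without AW replicate 1, the AW mouse with the lowest slow-fibre sum (151), the difference was −0.20 with an adjusted p of 0.015 in the exact test, so that 1 mouse decided whether it passed. With the slow-fibre score as a covariate it was −0.05 with an adjusted p of 0.27. The Slc25a11 over Slc25a12 ratio of the malate and aspartate carriers was 0.392 to 0.461 in inactive and 0.492 to 0.597 in active mice, and its genotype difference was −0.03 (exact permutation p = 0.58, adjusted p = 0.58). All 3 ratios were higher in active mice, by 0.54 for Mdh1 over Mdh2, 0.33 for Got1 over Got2 and 0.40 for the carriers on the log2 scale, without overlap for Mdh1 over Mdh2 and for the carriers. The activity differences are a description.

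**Figure D4:**
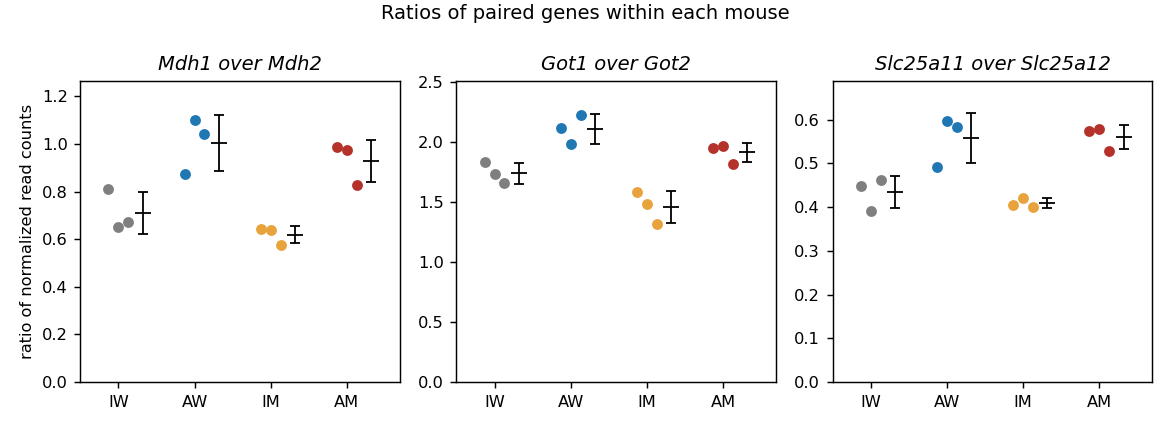
Ratio of normalized read counts (vertical axes, from 0) of Mdh1 over Mdh2, Got1 over Got2 and Slc25a11 over Slc25a12 within each mouse (points) of the IW, AW, IM and AM groups, with the group mean and SD (bars, n = 3). For Got1 over Got2 the IM mice (1.32 to 1.58) are below the IW mice (1.66 to 1.83), and the AM mice (1.82 to 1.97) are below the AW mice (1.98 to 2.23).

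Levels were compared between genes per kilobase of transcript, taking 2122 bases for Mdh1, 2058 for Got1, 2530 for Got2, 1711 for Slc25a11 and 6351 for Slc25a12. Each is the length of 1 annotated transcript, that with the longest coding sequence, whereas reads were counted over RefSeq exons. The coding bases were 1002, 1239, 1290, 942 and 2031 in the same order of genes. The ranking of the genes, above all of Slc25a12, therefore depends on the length taken. By the transcript lengths, the order from high to low was Mdh1, Got1, Slc25a11, Got2 and Slc25a12 in 11 of 12 mice. In the other mouse, an IW mouse, Slc25a12 exceeded Got2. In IW mice the levels per kilobase were 263 ± 47.8 for Mdh1, 208 ± 38.1 for Got1, 151 ± 16.5 for Slc25a11, 96.8 ± 14.4 for Got2 and 93.8 ± 6.57 for Slc25a12 (SD, n = 3). In AM mice they were 407 ± 49.3, 309 ± 41.8, 188 ± 14, 131 ± 13.4 and 90.2 ± 2.4 in the same order (SD, n = 3). Neighbours in this order overlapped in IW mice for Mdh1 and Got1 (226 to 317 and 175 to 249.7) and for Got2 and Slc25a12 (82.1 to 111 and 88 to 101). Mdh2 was higher per kilobase than each of the 5, at 538 ± 31.9 in IW and 638 ± 42.5 in AM mice (SD, n = 3).

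The genes closest to each shuttle gene were found by the mean absolute difference in log2 deviation over the 12 mice. The search covered 2556 genes whose mean reached 50. Mdh1 and Got1 were each other's closest gene at 0.039, against a median of 0.468 over all genes for Mdh1 and 0.456 for Got1. Next to Mdh1 came Adck3, a kinase-like protein of coenzyme Q synthesis (0.084), and Ckmt2, the mitochondrial creatine kinase of muscle (0.088). Next to Got1 came Adck3 (0.074) and Acadvl, the very long-chain acyl-CoA dehydrogenase (0.085). The closest genes to Slc25a11 were Ndufs8 of respiratory complex I (0.035), Hadhb of the mitochondrial trifunctional protein (0.044) and Uqcrfs1, the Rieske protein of complex III (0.048). Those to Got2 were Prdx2, a peroxiredoxin (0.061), Slc25a11 (0.063) and Etfb, a subunit of the electron transfer flavoprotein (0.067). Slc25a12 was nearest to Gbas (0.031), to the cysteine desulfurase Nfs1 (0.034) and to Isca1 of iron-sulfur cluster assembly (0.038). Mdh1 and Slc25a12 differed by 0.387, which put Mdh1 at place 2501 of the 2556 in closeness to Slc25a12, whose median was 0.144. The same difference put Slc25a12 at place 452 in closeness to Mdh1, whose median was 0.468. These places depend on how much each gene varies. The 12 mice share group structure and the slow-fibre spread. Mdh1 and Got1 had also been singled out by their higher level in the same active mice, a difference that enters their closeness. This likeness is therefore a description.

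Mdh2, the partner of Mdh1 in the matrix, was called higher in active mice, with 831, 738 and 779 in IW, 820.1, 948 and 974 in AW, 726, 689 and 694 in IM and 874, 996 and 918 in AM mice. An AW mouse at 820.1 lay below an IW mouse at 831, and IM and AM mice were apart. Its log2 change was 0.31 for activity (SE 0.0573, FDR-adjusted P-value 0.00467 in limma) and −0.06 for genotype (SE 0.0573, adjusted 0.556). In the tricarboxylic acid cycle, which shares malate and oxoglutarate with the shuttle and whose list includes Mdh2, 14 of 16 genes were called higher and 0 lower, against 7.99% and 6.51% of all genes. Their changes ran from 0.14 to 0.65 with a median of 0.25, the median of all genes being −0.02. The subunit Sdhb of succinate dehydrogenase changed by 0.65 (SE 0.105, adjusted 0.0027) and the citrate synthase Cs by 0.17 (SE 0.0462, adjusted 0.0278), while Idh3a (0.14, adjusted 0.0558) and Ogdh (0.23, adjusted 0.0536) did not pass. With the slow-fibre score as a covariate 10 of the 16 were called, and 12 to 16 when a mouse was left out. The change of Cs stayed near its size but was no longer called with that covariate (0.14, adjusted 0.0934) and without any 1 of IW replicates 2 and 3, AW replicates 2 and 3, the IM replicates and AM replicate 2 (0.16 to 0.18, adjusted 0.0515 to 0.0761). For genotype 0 of the 16 were called, against 5.78% of all genes, with a median change of −0.13.

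Of the 3 genes of the glycerol phosphate shuttle, 2 were called lower in active mice and 0 higher, against 6.51% and 7.99% of all genes. The cytosolic glycerol-3-phosphate dehydrogenase Gpd1 was 661, 853 and 742 in IW, 751, 596 and 534 in AW, 999, 937 and 956 in IM and 763, 658 and 816 in AM mice. The mitochondrial enzyme Gpd2 was 219.6, 261 and 227 in IW, 264, 174 and 166 in AW, 284, 277 and 289.7 in IM and 212, 184 and 223 in AM mice. Active and inactive mice were apart within myostatin-reduced mice and overlapped within wild-type mice for both genes. Their log2 changes were −0.32 for Gpd1 (SE 0.0892, FDR-adjusted P-value 0.0311 in limma) and −0.36 for Gpd2 (SE 0.102, adjusted 0.0351), while the related Gpd1l gave −0.01 (SE 0.0579, adjusted 0.925). Both calls were lost with the slow-fibre score as a covariate (−0.15, adjusted 0.104, and −0.17, adjusted 0.178). Both were also lost without any 1 of IW replicates 2 and 3, AW replicates 2 and 3, the IM replicates and AM replicate 2, with changes of −0.33 to −0.27 for Gpd1 and −0.37 to −0.30 for Gpd2 and adjusted P-values of 0.0544 to 0.0907. For genotype none of the 3 was called, against 5.78% of all genes, and Gpd1 had a log2 change of 0.31 (SE 0.0892, adjusted 0.0613). The Gpd1 genotype change passed the test without IW replicate 2, AW replicate 1 or AM replicate 2 (adjusted 0.0434, 0.014 and 0.0398), with sample weights (0.35, adjusted 0.0205) and with the slow-fibre score as a covariate (0.19, adjusted 0.0411).

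Of the lactate dehydrogenases, which compete with both shuttles for cytosolic NADH, the heart-type Ldhb was called higher in active mice. It was 147, 50.9 and 73.4 in IW, 109, 324 and 306 in AW, 40.4, 43.2 and 14.8 in IM and 212, 268 and 151 in AM mice, so that activity levels were apart in myostatin-reduced mice and overlapped in wild-type mice. Its log2 change was 2.08 (SE 0.346, FDR-adjusted P-value 0.00284 in limma), and it was between 1.47 and 2.34 in 19 alternatives with the call kept in each. The muscle-type Ldha had a change of −0.20 (SE 0.0759, adjusted 0.104) and passed the test without AW replicate 1 (−0.25, adjusted 0.0209) and with sample weights (−0.23, adjusted 0.0263).

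Among the other enzymes of glutamate and aspartate, 1 of 9 tested was called higher and 0 lower in active mice, against 7.99% and 6.51% of all genes, so that the count is near the background. It was Gpt, the alanine aminotransferase, at 18.6 to 25.2 in IW, 24.3 to 41.6 in AW, 18 to 20.7 in IM and 33.6 to 34.7 in AM mice (log2 change 0.70, SE 0.115, FDR-adjusted P-value 0.0028 in limma). By genotype 1 of the 9 was called, against 5.78% of all genes, again near the background. The glutamine synthetase Glul was 127 to 157 in IW, 145 to 168 in AW, 207 to 305 in IM and 226 to 230 in AM mice, and the 6 myostatin-reduced mice lay above the 6 wild-type mice (log2 change 0.65, SE 0.0923, adjusted 0.00263). The calls of Gpt and Glul were kept in all 19 alternatives. The other 7 genes of the list passed neither test, among them the glutamate dehydrogenase Glud1 (activity 0.16, SE 0.0517, adjusted 0.0553) and the AMP deaminase Ampd1 (activity −0.39, SE 0.13, adjusted 0.0639). Asns and Got1l1 were not analysed here.

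Of the other routes for malate, citrate and glutamate, 5 of 11 listed genes were tested and 0 were called for activity, against 7.99% of all genes called higher and 6.51% lower. The mitochondrial glutamate carrier Slc25a22 had a log2 change of 0.64 (SE 0.208, FDR-adjusted P-value 0.0563 in limma). Pcx, the pyruvate carboxylase that makes oxaloacetate, was 103 to 153 in IW, 112 to 134 in AW, 172 to 193 in IM and 132 to 166 in AM mice. It was the 1 gene of the 5 called for genotype, where 5.78% of all genes were called, with a log2 change of 0.39 (SE 0.0955, adjusted 0.0353). This call was lost without any 1 of AW replicates 2 and 3, the IM replicates and AM replicates 1 and 3, with changes of 0.36 to 0.41 and adjusted P-values of 0.0566 to 0.0879.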

How the data were processed

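Polyadenylated RNA of the triceps brachii of 12 mice was read from 1 end on the Illumina Genome Analyzer IIx. Per the submitters' notes and the study's methods, the authors mapped reads with CASAVA (version not given in the sources used here) to mouse mm9 and summed reads in RefSeq exons to genes. The deposited values are a signal: gene read counts that the authors scaled to an equal trimmed mean of the non-mitochondrial genes in every sample. Use of strand was not given in the sources used here. Column names gave the sample of each of the 12 columns, and 0 columns were left unmapped. Groups and replicate numbers came from the sample titles.

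Low values rose in steps of 0.07703 to 0.10541, the worth of 1 read, and gave the depth. The share of values that were whole steps (within 0.0051) was 88.6% to 91.2% under 5 and 62.7% to 66.5% from 30 to 60, so whole reads were not recovered and no count model was run. A floor of 3 reads equals 0.231 to 0.316, for counting error only. In every gene of the table the highest group mean was at least 3.0.

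Genes with a mean of at least 10 were tested on log2(value + 1) with limma 3.58.1 (R 4.3.3), a scale that understates changes of low genes. The 12 samples entered 1 fit of the 4 group means, with a trended eBayes and two-sided P-values adjusted by Benjamini-Hochberg over the genes tested, and a gene was called under 0.05. Ratios were compared by exact permutation of genotype within activity level. The scripts were tested on simulated data. The study's isoform test needs the reads and was not repeated.

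The shuttle genes, the gene lists and the rule for named genes (the shuttle genes, Mstn, the listed genes and the 3 closest genes of each) were chosen with earlier results of these data known. Replicate numbers stood for different mice, and deviations of samples of the same number correlated at −0.6 to 0.48, over 0.1 in 9 of 18 pairs, so the fit has no replicate block. The slow-fibre covariate for the ratios and the search for CCAAT were added after the data were seen. Alternatives were another pseudocount, no filter, another scaling, sample weights, the replicate block, the slow-fibre covariate and leaving out each mouse.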

Additional observations from a re-analysis of the deposited data

How the results depend on the processing

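Across 19 alternatives, 0 of the 5 shuttle genes were called for genotype, for the interaction, or for genotype within an activity level. Over all genes, 1051 were called for activity, against 1740 with sample weights, 401 with the slow-fibre covariate and 552 to 1485 when a mouse was left out. For genotype 419 were called, 180 to 579 when a mouse was left out, and for the interaction 0 to 1, the 1 without IW replicate 3. For genotype in inactive mice 182 were called, 334 with sample weights, 98 with the replicate block, 115 with the slow-fibre covariate and 23 to 216 when a mouse was left out. For genotype in active mice 15 were called, 9 with the replicate block, 29 with the slow-fibre covariate and 4 to 15 when a mouse was left out. The block changed no call of a shuttle gene.

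With the slow-fibre covariate the genotype estimate changed sign for Got2 (0.08, and 0.01 in inactive mice) and, in active mice, for Mdh1 (0.01) and Got1 (0.02), the activity estimate for Gpd1l (0.03), and the genotype difference for Slc25a11 over Slc25a12 (0.04). When a mouse was left out, estimates near 0 also changed sign. The ranges were −0.11 to 0.01 for Got2 and genotype, −0.25 to 0.01 for Mdh1, −0.19 to 0.03 for Got1 and −0.05 to 0.17 for Got2 and genotype in active mice, 0.00 to 0.09 for Slc25a12 and activity in wild-type mice, and −0.05 to 0.02 for Gpd1l and activity. The cause of these shifts was not tested. The Got1 over Got2 difference lost its call without IW replicate 1 (−0.18) and with the slow-fibre covariate (−0.17), and the Mdh1 over Mdh2 difference passed without AW replicate 1 (−0.20). The planned Slc25a12 and Slc25a13 pair was not run, since Slc25a13 was not analysed. With 3 mice a group, leaving out 1 leaves 2 there. The lowest coverage of a shuttle gene was 2065 estimated reads, with a counting error of 2.2% at most.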
